A study of Homo sapiens with 60 samples.

Results

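The comparison described here is between HT29 cells given the high dose of a water extract of Soshiho-tang, a decoction of several herbs, and HT29 cells given the vehicle, over all genes. HT29 is a cell line from a human colorectal adenocarcinoma. The members were chosen by their titles and amount to 5 of the 60 libraries of the series. They are 2 libraries at 500 µg/mL, with the replicate numbers 2 and 3, and 3 vehicle libraries, with the numbers 1, 2 and 3, all after 24 h. The vehicle was DMSO. The labels of the vehicle libraries give it as 0.1%, while the text on the series gives 2%, and no percentage was found for the extract libraries. The first part of the library names, here called the library set, is C1 for the vehicle and 8 for the extract, so against the vehicle the extract cannot be told apart from the library set or from the amount of DMSO. Soshiho-tang was also given at 100 and 20 µg/mL, in 2 libraries each of set 8, which allows a comparison of the high with the low dose within a set.

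Messenger RNA was measured by RNA sequencing, and the values are expected counts per gene. The 5 libraries held between 22299962 and 32138921 expected counts, and all 60 held between 18161717 and 35128954. Levels are given as CPM, counts scaled to a common library total with a correction for composition (TMM), which do not allow for gene length and so are compared between libraries and not between genes. Changes are log2 fold changes, high dose minus vehicle, with the standard error (SE) after ±. A gene was called, and is said to have risen or fallen, when its adjusted p (edgeR quasi-likelihood test, Benjamini-Hochberg over 16890 genes) was under 0.05. Nothing in the labels says that the libraries of a group came from separate cultures, so the p-values measure only the spread between these libraries.

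As background, 3 inducible programmes meet in intestinal epithelium exposed to plant material. The aryl hydrocarbon receptor (AHR) binds flat aromatic ligands, among them many plant compounds, moves to the nucleus, pairs with ARNT and raises the transcription of cytochrome P450 genes and of its own repressor. NRF2, encoded by NFE2L2, is held down by KEAP1 until reactive compounds modify it, and then drives genes for glutathione, thioredoxin and NADPH. NF-kB dimers, held by inhibitors such as NFKBIA, drive chemokines and their own feedback inhibitors.

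The cells carried the markers of their line in each library. The 12 markers of colon epithelium, such as EPCAM, KRT8, KRT18 and LGALS4, summed to 12142, 13014 and 14167 CPM in the vehicle and to 14108 and 13811 CPM at the high dose. The treated replicate 3 also held transcripts of blood cells. The hemoglobin genes HBB and HBA2 were at 3.36 and 2.98 CPM there and at 0 in treated replicate 2, where a count of 0 allows up to 0.14 CPM. The 10 erythroid markers summed to 9.73 CPM in treated replicate 3, against 0.187 in treated replicate 2, 0.112 to 0.272 in the vehicle and at most 0.33 in the other 49 libraries of groups with replicates, while HBD, HBG1, HBG2, SLC4A1 and AHSP were among those at 0 there. Markers of antigen-presenting cells (class II genes and CD74) summed to 20.5 CPM, against 2.57 in treated replicate 2 and at most 5.01 elsewhere. Lymphoid markers reached 6.02 CPM against 0.654, and platelet markers 1.68 against 0.0934. Of 16 myeloid markers, 13 were higher in treated replicate 3 than in any of the other 53 libraries, although LYZ, which HT29 cells themselves expressed at 1228 to 1559 CPM, hides this in the sum. Treated replicate 2 was not above the range of the other 49 libraries in any of these lists of blood cell markers. In bulk RNA fewer cells of a type and less RNA per cell cannot be told apart. Because of the blood cell transcripts, the genes named by rule were checked in both treated libraries and with either of them left out. Levels in both treated libraries are given below for part of the genes, and the others are given by their fitted change alone.

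At the high dose 1339 of the 16890 genes were called, which is 7.93% of them: 704 rose (4.17%) and 635 fell (3.76%). These shares are the background for the counts of called members in each list below. The changes were mostly small. The change was under 1.5-fold for 884 called genes, while 83 rose and 96 fell at least 2-fold. Both treated libraries lay beyond all 3 vehicle libraries in 1325 of the called genes. In the other 14 they overlapped the vehicle, and among these were the leukocyte genes LAPTM5, CD74, HCLS1 and VCAN, above the range of the vehicle in treated replicate 3 only. Without that library these 4 were not called (adjusted p = 0.88, 0.13, 0.863 and 0.599). Over all genes tested, both treated libraries lay above the vehicle in 16.4% and below it in 17.3%. With treated replicate 3 left out 674 genes were called (3.84%; 2.11% higher and 1.73% lower), and 608 of the 1339 were among them. With treated replicate 2 left out 839 of the 1339 were. The spread is estimated over 54 libraries, and without 1 of another group, the low dose of the decoction Yijin-tang, replicate 2, the count was 3057, with 1338 of the 1339 among them. A fit of the 2 groups alone called 475. Within library set 8, the high dose differed from the low dose in 1062 genes (6.29%). Of the 1339 genes, 1328 had the same sign there and 765 were called with that sign, against 1 with the opposite sign. Both comparisons hold the same 2 high dose libraries, so this agreement is in part built in and is not independent.

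**Figure D1:**
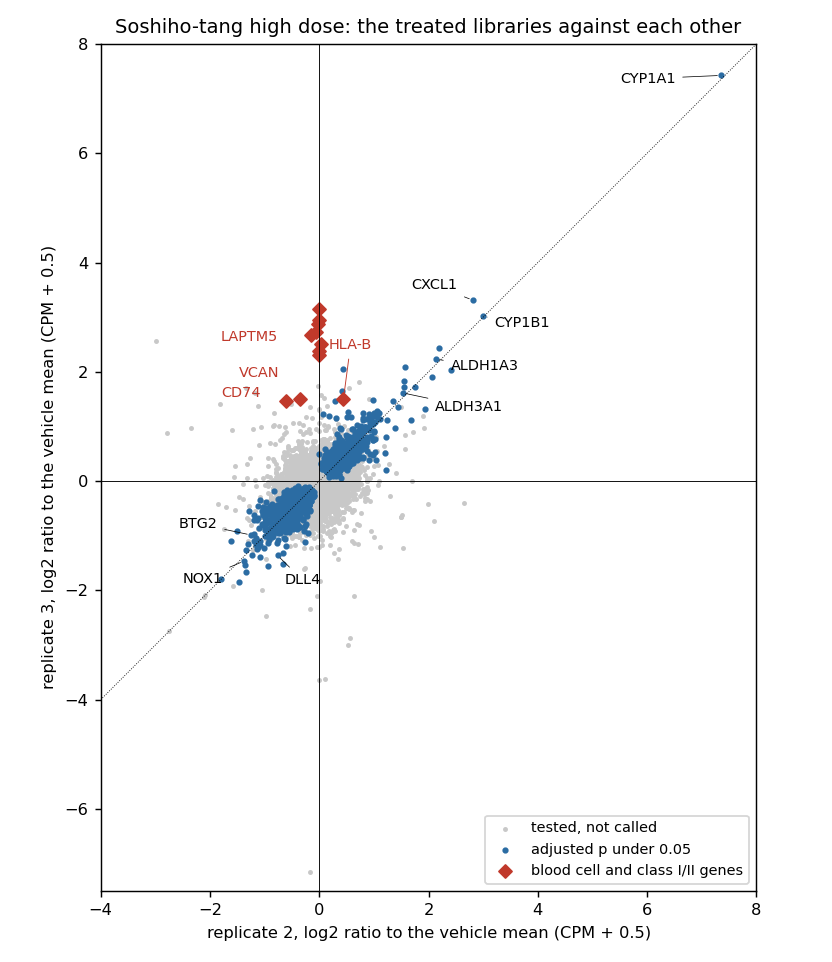
Log2 ratio of each treated library to the mean of the 3 vehicle libraries (CPM + 0.5), replicate 2 on the x axis and replicate 3 on the y axis, for all 16890 genes tested (grey), the 1339 called genes (blue) and 11 genes of blood cells and antigen presentation (red diamonds). The called genes lie along the diagonal, with CYP1A1 at the far end, while the diamonds rise in replicate 3 and stay near 0 or below 0.5 in replicate 2.

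Targets of the aryl hydrocarbon receptor held the largest change of the comparison. Of 15 listed targets 12 were tested, 9 rose and none fell, with a median log2 fold change of 0.76, against 0.00 over all genes tested. CYP1A1, the cytochrome P450 that is the classical readout of the receptor (ENSG00000140465, chromosome 15, 74719542 to 74725610 on GRCh38), was at 0.476, 0.337 and 0.696 CPM in the vehicle and at 163 and 172 CPM at the high dose. The treated libraries lay far above each vehicle library and close to each other, and the fitted fold change was 328. The log2 fold change was 8.36 ± 0.15 (adjusted p = 6.95e-35), on 9 to 20 counts per vehicle library and 3500 and 5417 counts per treated library. Its relative CYP1B1, an estrogen and polycyclic hydrocarbon hydroxylase, stood at 46.2, 48.2 and 45.8 CPM in the vehicle and at 379 and 381 CPM at the high dose, a change of 3.02 ± 0.07 (adjusted p = 8.41e-31). CYP1A2, the liver member of the family, was at 0 in the vehicle and at 0.0934 and 0.19 CPM at the high dose and was not tested.

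The stretch below shows, for CYP1A1, the only match to GCGTG, the core of the sequence that the AHR and ARNT pair binds, in the 250 bases before its RefSeq start (GRCh38.p14, minus strand, chr15:74725567-74725596). The match is in capitals and lies at positions -57 to -53 from the start.
CYP1A1: cagggaaggagGCGTGgccacacgtacaag
Searched on both strands, this core is common: 32.2% of 35116 RefSeq promoters of the same length hold it. ALDH1A3, TIPARP (at 1 of its 3 starts) and AHRR hold it too. So do GCLM, GCLC, TXNRD1, OSGIN1, CXCL5, CCL20, BIRC3 and ICAM1, which are not among the listed targets. CYP1B1 and ALDH3A1 were not in the promoter table. A match is a description of the letters and not of binding.

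Aldehyde dehydrogenases among the targets also rose. ALDH1A3, which makes retinoic acid from retinaldehyde, was at 25.3, 25.0 and 22.2 CPM in the vehicle and at 108 and 115 CPM at the high dose, a change of 2.21 ± 0.07. ALDH3A1, which oxidises aromatic aldehydes, went from 27.7, 26.97 and 27.6 to 79.8 and 84.9 CPM (1.59 ± 0.08). In both genes the groups were far apart. Of the retinoid list 3 of 13 tested members rose, the other 2 being the retinol dehydrogenases DHRS9 (1.42 ± 0.28) and RDH10 (0.43 ± 0.09, adjusted p = 0.0705 without treated replicate 3).

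The receptor itself and its partner were not called. AHR was at 121, 128 and 109 CPM in the vehicle and at 110 and 99.2 CPM at the high dose (-0.19 ± 0.10, adjusted p = 0.291), and ARNT changed by -0.29 ± 0.14 (adjusted p = 0.238). Their feedback genes rose. TIPARP, an ADP-ribose transferase that restrains the receptor, was at 76.3, 80.7 and 77.9 CPM against 201 and 218 CPM (1.42 ± 0.11). AHRR, the receptor's repressor, was at 6.12, 5.92 and 6.19 CPM against 11.4 and 9.80 CPM (0.80 ± 0.15, adjusted p = 0.000299). The remaining risers of the list were the growth factor gene EREG (0.93 ± 0.09), the glucuronidation enzyme gene UGT1A6 (0.60 ± 0.08), SLC7A5 and TSKU. SLC7A5 was the only one of the 9 not called without treated replicate 3 (adjusted p = 0.172), and it was also not called without treated replicate 2 (adjusted p = 0.155) or without vehicle replicates 2 or 3 (0.136 and 0.103).

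Genes that conjugate or export foreign compounds changed less. Of 24 tested conjugating enzymes 6 rose and none fell, with a median of 0.06, which was -0.06 without treated replicate 3. The risers were UGT1A6, UGT1A1, UGT1A8 and UGT1A10, which share their last exons so that reads can be split between them, the sulfotransferase SULT2B1 (0.58 ± 0.10) and the epoxide hydrolase EPHX1. UGT1A8 (adjusted p = 0.512) and EPHX1 (0.178) were not called without treated replicate 3. Both were also lost without vehicle replicate 1 (0.0674 and 0.167) or 2 (0.073 and 0.0887), and EPHX1 without treated replicate 2 (0.15). Of 13 tested genes for drug efflux and targets of the pregnane X receptor, SLC22A3 alone was called. This organic cation transporter was at 6.36, 6.33 and 5.18 CPM in the vehicle and at 18.5 and 22.4 CPM at the high dose (1.78 ± 0.11). CYP3A4 and the receptor gene NR1I2 were under the filter on low counts.

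Several genes of glutathione supply rose. Of 20 tested genes for its synthesis and use 6 rose and 1 fell, with a median of 0.16, which was 0.08 without treated replicate 3. SLC7A11, which imports cystine, was at 98.5, 132 and 111 CPM in the vehicle and at 309 and 293 CPM at the high dose (1.40 ± 0.11, adjusted p = 3.49e-13). GCLM and GCLC, which encode the regulatory and catalytic chains of glutamate-cysteine ligase, rose by 1.12 ± 0.09 and 0.76 ± 0.06. GCLM was at 46.3, 59.1 and 48.1 CPM against 107 and 115 CPM, with no overlap. SLC3A2, the partner chain of SLC7A11, rose by 0.62 ± 0.09 and the glutathione reductase gene GSR by 0.34 ± 0.06. The member that fell was GGT1, which breaks glutathione down outside the cell, at 6.80, 6.70 and 6.78 CPM against 4.99 and 4.60 CPM (-0.50 ± 0.10). Its call was lost without treated replicate 3 (adjusted p = 0.0796).

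The RefSeq promoter of GCLM holds 1 match to TGACNNNGC, the core to which NRF2 and its MAF partners bind, on the opposite strand at positions -34 to -26 from the start (GRCh38.p14, minus strand, chr1:93909446-93909475). Capitals mark it, read here as its reverse complement.
GCLM: ctacgatttctGCTTAGTCAttgtcttcca
Of the 35116 promoters 10.9% hold this core on either strand. TXNRD1 holds it as well, and so does NFKBIA, a gene of the NF-kB list. GCLC, NQO1, SRXN1 and OSGIN1 do not within these 250 bases, and SLC7A11, HMOX1 and AKR1B10 were not in the table.

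The thioredoxin and NADPH list behaved alike, with 8 risers and 1 fall among 22 tested genes. Its median was 0.14, which was 0.02 without treated replicate 3. TXNRD1, thioredoxin reductase, was at 333, 341 and 307 CPM in the vehicle and at 571 and 613 CPM at the high dose (0.86 ± 0.07). OSGIN1 (0.83 ± 0.08), the malic enzyme ME1 (0.61 ± 0.07), the sulfiredoxin SRXN1 (0.58 ± 0.06) and TKT of the pentose phosphate pathway (0.40 ± 0.06) rose as well. NQO1, a quinone reductase, was at 478, 482 and 489 CPM against 643 and 800 CPM (0.58 ± 0.11), so that both treated libraries lay above the vehicle but differed from each other. Without treated replicate 3 its adjusted p was 0.0651 and that of PGD 0.0726. IDH1, a cytosolic source of NADPH, fell by 0.29 on the log2 scale and lost its call without treated replicate 2 (adjusted p = 0.204).

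Heme and iron genes and carbonyl reductases moved with them. HMOX1, which breaks down heme, was at 10.8, 11.1 and 11.7 CPM in the vehicle and at 22.8 and 27.3 CPM at the high dose (1.16 ± 0.11, adjusted p = 9.94e-11). ALAS1, the first enzyme of heme synthesis, rose by 0.50 ± 0.08 and the porphyrin transporter ABCB6 by 0.53 ± 0.07. SLC40A1, the iron exporter ferroportin, fell from 80.5, 83.7 and 80.9 to 51.4 and 59.96 CPM (-0.55 ± 0.06). In all, 7 of 20 tested heme and iron genes rose and 1 fell, and 3 and 1 were called without treated replicate 3. Of 12 tested genes in the list of aldo-keto and carbonyl reductases 6 rose, with a median of 0.44, and TXNIP, given below, fell. Without treated replicate 3 the median was 0.14 and 3 were called higher. AKR1B10, a retinaldehyde and aldehyde reductase, was at 108, 101 and 109 CPM against 200 and 240 CPM (1.06 ± 0.09), and ALDH3A2 rose by 0.74 ± 0.07. AKR1C1, AKR1C2 and AKR1C3 rose by 0.62 to 0.87, but these near-identical genes can exchange reads, and AKR1C2 and AKR1C3 were not called without treated replicate 3 (adjusted p = 0.127 and 0.187). CBR1 was not called without treated replicate 3 (0.468) or vehicle replicates 1 (0.127) or 3 (0.129).

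Among the regulators, 6 of 10 tested genes rose and none fell, by at most 0.46. SQSTM1, an autophagy receptor that binds KEAP1, rose by 0.46 ± 0.07 and KEAP1 by 0.34 ± 0.06. NFE2L2 was at 116, 132 and 129 CPM against 143 and 138 CPM (0.17 ± 0.05, adjusted p = 0.0285). The NFE2L2 call was lost without vehicle replicate 1 (adjusted p = 0.225) and without either treated library (0.218 and 0.067), and 2 of the 6 were called without treated replicate 3.

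Chemokine genes rose from low levels. Of 30 listed chemokines and cytokines 21 were tested, 10 rose and 1 fell, with a median of 0.99, and IL6, TNF, IL1B, CXCL10 and CCL2 were under the filter. CXCL1, a chemokine that draws neutrophils through CXCR2 (ENSG00000163739, chromosome 4, 73869393 to 73871242), was at 2.38, 2.32 and 1.496 CPM in the vehicle and at 17.5 and 25.0 CPM at the high dose (3.36 ± 0.22, adjusted p = 5.73e-15). CXCL8, interleukin 8, was at 7.52, 8.69 and 8.66 CPM against 25.2 and 28.4 CPM (1.70 ± 0.14). In both, treated replicate 2 lay well above the vehicle, and both genes were called with it as the only treated library (adjusted p = 1.36e-11 and 5.54e-09), when a lone library is assumed to vary like those of the other groups. CCL20, which draws dendritic and T cells through CCR6, was counted 3, 2 and 3 times in the vehicle and 47 and 85 times at the high dose (4.63 ± 0.45).

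The near relatives of CXCL1 stayed under 4 CPM. CXCL3 was at 1.05, 0.974 and 0.835 CPM against 2.38 and 3.55 CPM (1.64 ± 0.22) and CXCL2 at 0.544, 0.30 and 0.418 CPM against 1.26 and 1.43 CPM (1.66 ± 0.39). CXCL6 rose by 2.36 ± 0.41, on 4 to 9 counts per vehicle library against 21 and 39. CXCL5 had 4, 0 and 0 counts in the vehicle and 5 and 33 at the high dose, so that its rise rests on treated replicate 3. CXCL1, CXCL2 and CXCL3 are near copies of each other and can exchange reads. Without treated replicate 3 the calls of CXCL2 (adjusted p = 0.063), CXCL5 (0.412), IL32 (0.158) and CSF1 (0.109) were lost, and those of IL32 and CSF1 were also lost without vehicle replicate 1 (0.0596) and vehicle replicate 3 (0.0641). LIF, a cytokine of the interleukin 6 family, rose from 24.7, 20.4 and 20.0 to 41.8 and 44.7 CPM (0.99 ± 0.10). TNFSF10, the death ligand TRAIL, fell from 4.22, 4.12 and 5.22 to 2.15 and 2.57 CPM (-0.92 ± 0.18).

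The 6 CXCL genes that rose share a feature that the comparison did not use. In the 250 bases before its RefSeq start each holds 1 match to GGANTTTCC, a spelling of the NF-kB site, on the strand of the gene and between positions -91 and -69 from the start. All 6 lie on chromosome 4 (GRCh38.p14), and the capitals mark the match. CXCL1 is at chr4:73869304-73869333 (plus strand), CXCL2 at chr4:74099254-74099283 (minus), CXCL3 at chr4:74038749-74038778 (minus), CXCL5 at chr4:73998749-73998778 (minus), CXCL6 at chr4:73836578-73836607 (plus) and CXCL8 at chr4:73740467-73740496 (plus).
CXCL1: ctggaactccgGGAATTTCCctggcccggg
CXCL2: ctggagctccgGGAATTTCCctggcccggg
CXCL3: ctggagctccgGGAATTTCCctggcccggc
CXCL5: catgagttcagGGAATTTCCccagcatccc
CXCL6: cctgagttcagGGAATTTCCccagcatccc
CXCL8: ttgcaaatcgtGGAATTTCCtctgacataa
The sequence GGAATTTCC is the same in all of them, while the bases around it differ between CXCL8, the pair CXCL5 and CXCL6, and the group of CXCL1, CXCL2 and CXCL3. Of all 35116 promoters 1.45% hold a match on either strand. The genes arose by duplication, so they are not independent, and the spelling was chosen after these promoters were looked at. ICAM1 and NFKBIA hold the site too, and CCL20 and BIRC3 do not in this window.

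Among the subunits of NF-kB the genes RELA and NFKB1 did not pass the test, while feedback genes and targets rose. RELA was at 118, 113 and 121 CPM in the vehicle and at 124 and 122 CPM at the high dose (0.07 ± 0.13, adjusted p = 0.856), and NFKB1 changed by 0.02 ± 0.10 (adjusted p = 0.945). Of 20 tested subunit and feedback genes 9 rose and none fell, with a median of 0.24. BIRC3, an inhibitor of apoptosis, was at 4.12, 5.47 and 3.48 CPM against 8.92 and 10.5 CPM (1.16 ± 0.14). ICAM1, an adhesion molecule, rose by 1.00 ± 0.16, IER3 by 0.71 ± 0.17, BCL3 by 0.62 ± 0.14, the subunit genes RELB by 0.59 ± 0.12 and NFKB2 by 0.37 ± 0.08, and the inhibitor NFKBIA by 0.58 ± 0.11. TNFAIP3, the deubiquitinase A20, was at 2.38, 1.12 and 1.77 CPM against 2.75 and 4.95 CPM, and its rise of 1.14 ± 0.23 was not called without treated replicate 3 (adjusted p = 0.265). The same held for NFKBIA (0.0715). TNFAIP2 was not called without treated replicate 2 (0.186) or without vehicle replicates 2 (0.106) or 3 (0.078).

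Secreted defence genes followed in part, with 4 of 20 tested genes higher and 2 lower. C3, the central complement component, had 3, 1 and 1 counts in the vehicle and 53 and 56 counts at the high dose (5.05 ± 0.56). PI3, the elastase inhibitor elafin, was at 5.34, 4.12 and 5.29 CPM against 15.5 and 22.4 CPM (1.95 ± 0.19), and the complement factor gene CFB rose by 1.19 ± 0.24. SAA1 was called on 0 counts in each vehicle library against 2 and 7, too few for a fold change. Its call was lost without any single vehicle library (adjusted p between 0.0519 and 0.0616) and without treated replicate 3 (0.257). NOX1, the NADPH oxidase of colon epithelium (chromosome X, 100843324 to 100874345), fell from 16.2, 13.8 and 16.5 to 5.65 and 5.30 CPM (-1.51 ± 0.10, adjusted p = 2.02e-14), and REG4, a secreted lectin, fell by 0.56 on the log2 scale.

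**Figure D2:**
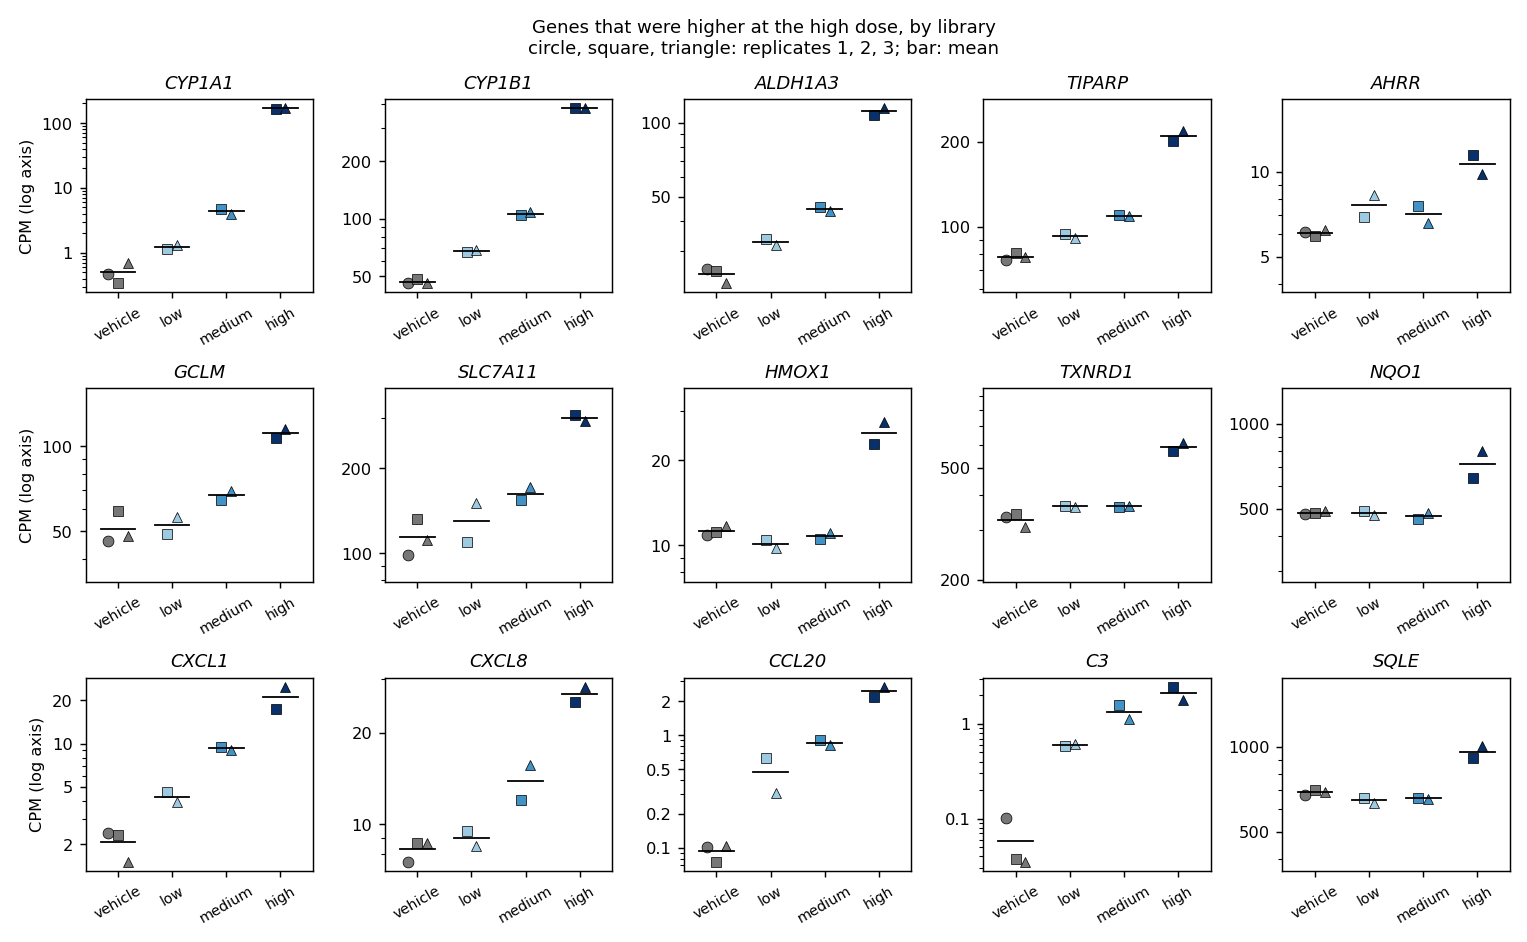
CPM on log axes of 15 genes that rose, in each vehicle library (n = 3) and each library of the low, medium and high dose of Soshiho-tang (n = 2 each), with markers by replicate number and bars for the mean. Both high dose libraries lie above all vehicle libraries in each panel; CYP1A1, CYP1B1, ALDH1A3, CXCL1, CCL20 and C3 stand above the vehicle at the lower doses too, and HMOX1, NQO1 and SQLE lie near it.

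Interferon response genes did not share the rise. Of 35 tested members 1 rose and 4 fell, with a median of -0.21. IRF1 rose by 0.28 ± 0.07 and DDX60 fell from 3.40, 3.86 and 3.37 to 2.01 and 2.38 CPM (-0.68 ± 0.18). None of the 5 calls survived each omission of a library: those of IRF1, STAT2 and HERC6 were lost without treated replicate 3 (adjusted p = 0.119, 0.522 and 0.421), and those of DDX60 and IFI35 without treated replicate 2 (0.127 and 0.375). HERC6 was also lost without treated replicate 2 (0.0551), and STAT2, HERC6 and IFI35 without vehicle replicate 2 (0.0592, 0.129 and 0.0846). STAT2 was further lost without vehicle replicate 1 (0.157), and HERC6 and IFI35 without vehicle replicate 3 (0.055 and 0.123). Within set 8, 11 of the 35 were called lower at 500 than at 20 µg/mL and none was called higher, where 3.03% of all genes were called lower. The median of the list was -0.44 in that comparison. Among the class I genes HLA-B was at 4.22, 3.26 and 3.27 CPM in the vehicle, at 5.04 CPM in treated replicate 2 and at 11.0 CPM in treated replicate 3. It was called (1.18 ± 0.20) but not without treated replicate 3 (adjusted p = 0.287), the library with blood cell transcripts. Their part in this value was not tested.

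Sterol genes rose by small amounts. Of 26 tested genes of cholesterol synthesis and uptake 12 rose and none fell, with a median of 0.28, and 8 were called without treated replicate 3. SQLE, squalene epoxidase, was at 674, 703 and 689 CPM in the vehicle and at 913 and 1005 CPM at the high dose (0.48 ± 0.04, adjusted p = 1.49e-11). The sterol carrier STARD4 rose by 0.62 ± 0.09, DHCR7 by 0.41 ± 0.07, CYP51A1 by 0.38 ± 0.06 and the feedback gene INSIG1 by 0.36 ± 0.06. The regulator SREBF2 did not pass the test (0.08 ± 0.11, adjusted p = 0.791).

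Of 29 tested hypoxia and glycolysis genes 7 rose and none fell, and 4 were called without treated replicate 3. The calls lost there were those of ENO1 (adjusted p = 0.24), PFKM (0.0609) and SLC16A3 (0.329), the last also without vehicle replicates 2 (0.142) or 3 (0.0682). SLC2A1, the main glucose transporter of proliferating cells, was at 511, 478 and 484 CPM against 776 and 822 CPM (0.70 ± 0.04, adjusted p = 1.68e-15), and PFKP rose by 0.54 ± 0.08. ADM was at 2.62, 2.81 and 3.10 CPM against 4.71 and 4.76 CPM (0.74 ± 0.16). TXNIP, which restrains glucose uptake and thioredoxin, fell from 54.9, 54.5 and 51.1 to 31.5 and 38.8 CPM (-0.60 ± 0.06). Of 16 tested targets of ATF4 and CHOP 4 rose and 1 fell, with TRIB3, a pseudokinase induced by amino acid shortage, at 0.59 ± 0.09. The 4 other calls of that list, DDIT4, GDF15, PPP1R15A and JDP2, were lost without treated replicate 3 (adjusted p between 0.103 and 0.346). GDF15 and PPP1R15A were also lost without treated replicate 2 (0.0544 and 0.131) or vehicle replicates 1 (0.101 and 0.0816) or 2 (0.114 and 0.0791), and GDF15 and JDP2 without vehicle replicate 3 (0.0518 and 0.0699). Of 20 tested chaperones of the endoplasmic reticulum 3 rose, by at most 0.27. None of the 3 calls was kept without vehicle replicate 1 (DNAJC3 0.0802, DNAJB11 0.213, HSPA5 0.0554), and without treated replicate 3 that of HSPA5 alone was, which was lost without treated replicate 2 (0.0665). Of 15 tested heat shock chaperones DNAJB1 fell by 0.26 and HSPA8 by 0.18 on the log2 scale against the vehicle, but against the low dose of the same set both were higher, by 0.18 (adjusted p = 0.0764) and 0.24 (0.00895). Both calls against the vehicle were lost without treated replicate 2 (0.136 and 0.465), and that of HSPA8 without vehicle replicates 2 or 3 (0.079 and 0.221).

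Genes of the secretory lineage were the list with the lowest median, at -0.73. Of 22 listed goblet and secretory genes 19 were tested, 7 fell and 1 rose. ATOH1, the transcription factor that starts the secretory fate, was at 3.95, 3.03 and 4.21 CPM in the vehicle and at 1.40 and 1.55 CPM at the high dose (-1.33 ± 0.17, adjusted p = 3.69e-07). The Notch ligand DLL4, found on secretory progenitors, fell from 5.51, 5.28 and 5.01 to 2.89 and 1.74 CPM (-1.22 ± 0.15), and DLL1, another ligand, fell as well (-1.25 ± 0.28). BCAS1 was at 64.4, 71.2 and 74.0 CPM against 37.9 and 34.0 CPM (-0.96 ± 0.06, adjusted p = 1.68e-15), and SYTL2, which acts in granule release, fell by 0.94 on the log2 scale. CREB3L1, a transcription factor of secretory capacity, was at 221, 173 and 207 CPM against 130 and 87.4 CPM (-0.88 ± 0.15). AGR2, the disulfide isomerase that folds mucins, fell by 0.56 on the log2 scale.

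The other defining genes of that lineage did not pass the test. SPDEF was at 33.0, 31.9 and 32.2 CPM against 41.3 and 37.4 CPM (0.28 ± 0.10, adjusted p = 0.0623) and TFF3 at 4.29, 4.01 and 4.45 CPM against 2.80 and 3.298 CPM (-0.47 ± 0.26, adjusted p = 0.344). The gene that rose, KLF4, had an adjusted p of 0.191 without treated replicate 2 and of 0.169 without treated replicate 3, and was also not called without vehicle replicates 2 or 3 (0.123 and 0.191). DLL1 and AGR2 were not called without treated replicate 2 (0.112 and 0.093). Of 13 tested mucins MUC13 and MUC3A fell, and neither was called without treated replicate 3 (0.109 and 0.393), nor MUC3A without vehicle replicate 1 (0.128). MUC2, the gel-forming mucin of the colon, varied between libraries of 1 group, at 33.8, 17.0 and 20.0 CPM in the vehicle and 19.7 and 7.45 CPM at the high dose (-0.83 ± 0.33, adjusted p = 0.122).

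Of 18 tested Wnt targets and stem cell genes 6 fell and none rose, with a median of -0.27. EPHB3, a receptor that positions cells in the crypt, was at 28.5, 23.6 and 24.0 CPM against 15.1 and 12.9 CPM (-0.86 ± 0.12). SP5 fell by 0.69, MYB by 0.58 and PROM1, the CD133 antigen, by 0.58 on the log2 scale, all without overlap. NOTUM and SOX9 also fell, but not without treated replicate 3 (adjusted p = 0.507 and 0.319), and NOTUM not without vehicle replicate 1 (0.0637). The textbook stem cell marker LGR5 was at 29.4, 29.9 and 29.3 CPM against 30.6 and 28.5 CPM (0.00 ± 0.11, adjusted p = 0.996), and AXIN2, the feedback gene of the pathway, changed by 0.04 ± 0.10 (adjusted p = 0.898).

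Genes of the absorptive surface were mixed, with 3 of 22 tested members higher and 5 lower. ANXA13, an annexin of intestinal epithelium, fell from 15.5, 18.2 and 19.3 to 6.63 and 7.07 CPM (-1.36 ± 0.09, adjusted p = 5.86e-15). PDZK1, a scaffold of transporters, fell by 0.67 and VIL1, which bundles the actin of microvilli, by 0.35 on the log2 scale. KRT20, a keratin of mature surface cells, rose by 0.33 ± 0.05 and CEACAM7, another surface marker, from 0.306, 0.30 and 0.418 to 0.98 and 0.92 CPM (1.46 ± 0.28). Without treated replicate 3 USH1C (adjusted p = 0.0769) and CA2 (0.125) were not called, and without treated replicate 2 CA2 (0.22) and CEACAM6 (0.147) were not. CA2 was also lost without vehicle replicates 1 (0.0637) or 2 (0.0948). CLDN1 and CLDN2, claudins of the tight junction, fell by 0.49 and 0.53 on the log2 scale. LAMA3 and LAMB3, laminin chains of the basement membrane, rose by 0.73 ± 0.20 and 0.40 ± 0.10, and neither was called without treated replicate 2 (0.0936 and 0.134), nor LAMA3 without treated replicate 3 (0.0574).

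**Figure D3:**
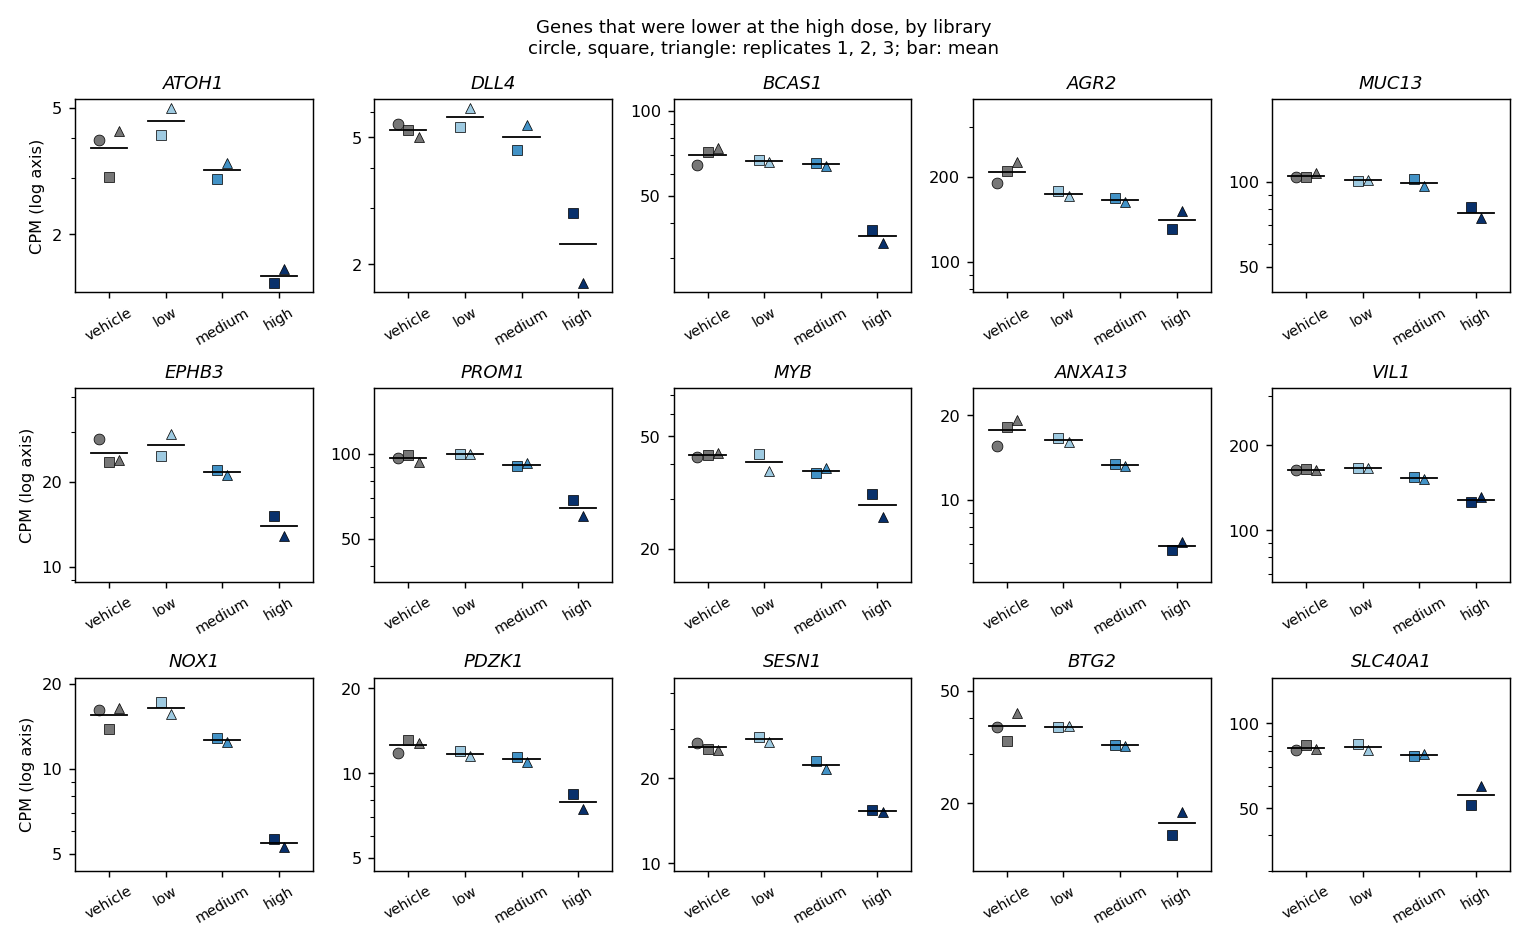
CPM on log axes of 15 genes that fell, by library, for the vehicle (n = 3) and for the low, medium and high dose of Soshiho-tang (n = 2 each), with markers by replicate number and bars for the mean. Both high dose libraries lie below all vehicle libraries in each panel, while the low dose libraries lie within or close to the range of the vehicle, except for AGR2, where both lie below it.

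Growth control genes moved in both directions. Of 23 tested p53 targets 4 rose and 4 fell, and 2 and 3 were called without treated replicate 3. CDKN1A, the cyclin-dependent kinase inhibitor p21, was at 11.9, 10.6 and 10.8 CPM in the vehicle and at 17.4 and 21.8 CPM at the high dose (0.82 ± 0.09), while BTG2, an antiproliferative gene, fell from 37.4, 33.3 and 41.6 to 15.4 and 18.6 CPM (-1.13 ± 0.09) and SESN1 by 0.75 on the log2 scale. PLK3 rose by 0.57 ± 0.10. As background, HT29 cells carry a mutant p53. Of 28 tested immediate early and MAPK feedback genes 5 rose and 2 fell. FOSB and ETV5 were not called without treated replicate 3 (log2 fold changes of 0.56 and -0.10). Nor were FOSL1 and SPRY2 without treated replicate 2 (0.41 and -0.27). FOSL1 was also lost without vehicle replicate 2 and ETV5 without vehicle replicate 1 (adjusted p = 0.0626 and 0.172). Against the low dose 12 were called higher and 1 lower, where 3.26% and 3.03% of all genes were. DUSP5, a phosphatase of ERK, was at 4.59, 4.61 and 4.28 CPM against 8.17 and 10.3 CPM (1.05 ± 0.13), JUNB rose by 0.56 ± 0.11 and PHLDA1 by 0.42 ± 0.06. FOS did not pass the test against the vehicle (0.29 ± 0.12, adjusted p = 0.127) and was higher than at the low dose (0.62, adjusted p = 0.00138). TGFA, a ligand of the EGF receptor like EREG, rose by 0.48 ± 0.09.

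Of 32 tested genes of DNA replication 7 rose, by at most 0.34, and none fell, with a median of 0.15. Against the low dose of the same set the median was 0.05, and 5 were called higher. RFC3, of the clamp loader, rose by 0.34 ± 0.06 and the origin licensing gene CDC6 by 0.28 ± 0.06. RRM2 and CDC45 were not called without treated replicate 3 (log2 fold changes of 0.15 and 0.23). MCM10 and UHRF1 were not called without treated replicate 2 (0.32 and 0.13). Of 30 tested genes of mitosis 3 rose, by at most 0.17, and none of the calls was kept under both omissions of a treated library. CCNA2 and CDC20 were lost without treated replicate 3 (adjusted p = 0.446 and 0.15), and KIF2C and CDC20 without treated replicate 2 (0.0808 and 0.147). CCNA2 and CDC20 were also lost without vehicle replicate 1 (0.202 and 0.16), and CDC20 without vehicle replicate 2 (0.0928). MKI67, the usual marker of cycling cells, was at 971, 1015 and 1109 CPM against 1239 and 765 CPM, on both sides of the vehicle (-0.04 ± 0.26, adjusted p = 0.966). The 13 protein genes of the mitochondrial genome had a median of -0.37, which was -0.09 without treated replicate 3 and 0.05 against the low dose. Of these genes 1 was called. MT-ND6 was at 1736, 988 and 1236 CPM in the vehicle and at 838 and 460 CPM at the high dose (-1.03 ± 0.28). This call was lost without treated replicate 3 (adjusted p = 0.399) and without vehicle replicate 1 (0.11). The 27 tested nuclear genes of the respiratory chain had a median of 0.05, with 1 riser, CYC1, where 4.17% of all genes tested rose. Without treated replicate 3 the median was -0.05 and CYC1 was not called (adjusted p = 0.264).

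**Figure D4:**
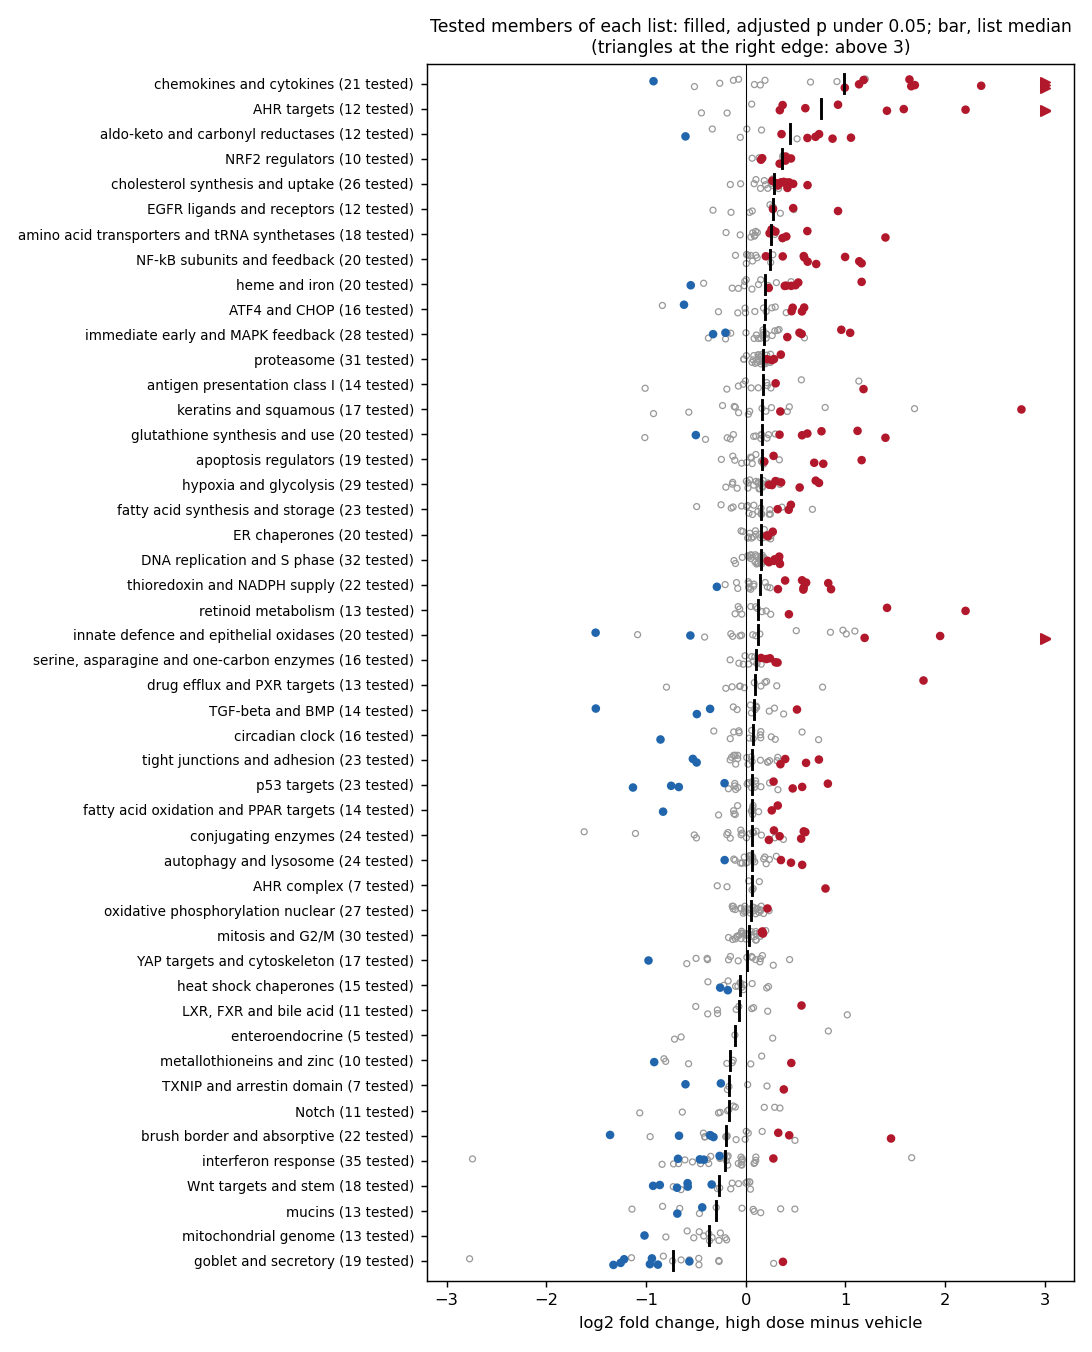
Log2 fold change, high dose minus vehicle, of the tested members of each of 48 lists, ordered by list median (bar), with called members filled (red higher, blue lower) and others open. Chemokines and AHR targets have the highest medians, 0.99 and 0.76, and goblet and secretory genes the lowest, -0.73.

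Beyond the lists, the largest rises and falls among called protein-coding genes with at least 5 CPM in 1 group brought in other genes. Risers outside the lists were LRRN4 (1.90 ± 0.23), the adhesion G protein-coupled receptor ADGRF1, at 33.8, 32.2 and 31.5 CPM against 111 and 108 CPM (1.76 ± 0.11), the hedgehog transcription factor GLI2 (1.36 ± 0.21), the kinase PIM1 (1.21 ± 0.13) and the integrin chain ITGB7 (1.19 ± 0.14). The largest fall was that of CD200, a surface glycoprotein that restrains myeloid cells, from 5.03, 5.02 and 6.26 to 1.63 and 1.14 CPM (-2.0 ± 0.18, adjusted p = 3.92e-11). It was followed by CHST3, a chondroitin sulfotransferase (-1.61 ± 0.23), and GABRP, a GABA receptor subunit of epithelia, at 12.4, 13.4 and 13.7 CPM against 4.81 and 4.18 CPM (-1.55 ± 0.10). SPEG (-1.33 ± 0.16), FAM131B (-1.305 ± 0.16), SLC38A11 (-1.301 ± 0.11), RASL11A (-1.20 ± 0.13), the receptor phosphatase PTPRO (-1.17 ± 0.08) and the proton pump subunit ATP6V1B1 (-1.11 ± 0.10) fell too. KCNE3, a potassium channel subunit that supports chloride secretion in the colon, was at 50.5, 50.7 and 53.5 CPM against 25.6 in both treated libraries (-1.01 ± 0.06, adjusted p = 1.08e-16). All of these were also called without either treated library and, with the same sign, against the low dose.

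The lower doses, which share the vehicle libraries with the high dose, called few genes: 40 at 100 µg/mL (0.237%) and 17 at 20 µg/mL (0.101%). CYP1A1 stood at 4.74 and 3.99 CPM at the medium dose (3.09 ± 0.18) and at 1.14 and 1.305 CPM at the low dose (1.26 ± 0.22), between the vehicle and the high dose in each library. CXCL1 was at 9.53 and 9.04 CPM at the medium dose and at 4.60 and 3.95 CPM at the low dose. Within set 8 CYP1A1 was higher at 500 than at 20 µg/mL by 7.09 ± 0.16, CYP1B1 by 2.49, ALDH1A3 by 1.77, CXCL1 by 2.31, SLC7A11 by 1.21, GCLM by 1.08 and HMOX1 by 1.31 (adjusted p from 1.03e-30 to 2.26e-09). ATOH1 was lower, with a difference of -1.61 ± 0.18, and the differences were -0.89 for BCAS1, -0.96 for EPHB3, -1.25 for ANXA13 and -1.59 for NOX1 (adjusted p from 5.3e-14 to 6.24e-07). In these genes the difference was thus found between libraries of the same set, with the same high dose libraries as against the vehicle. For BMF, an apoptosis activator, it was not: BMF was higher than in the vehicle by 0.78 ± 0.13 at the high dose and by 0.66 at the low dose, with 0.12 between the doses (adjusted p = 0.756).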

How the data were processed

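Libraries came from a directional mRNA kit, read in pairs of 100 bases (per the labels' protocols). Tools listed in the submitters' processing notes are RSEM 1.3.3, STAR 2.7.3a, Trim Galore 0.6.5 and FastQC 0.11.9, with GRCh38 as the build and without parameters. The authors deposited expected counts per gene for 60 libraries and 60675 gene IDs. Of these IDs 57055 were given a symbol, from a separate list of gene names or, where that had none, from GENCODE release 29. Whole numbers (within 1e-09) made up 89.9% of the values.

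The expected counts were rounded and tested with edgeR 4.0.16 in R 4.3.3 (TMM factors, filterByExpr by group, quasi-likelihood test). All 54 libraries of the 19 groups with 2 or 3 libraries entered 1 fit with group as its only term, and the contrast was the high dose (n = 2) minus the vehicle (n = 3). The SE is the absolute log2 fold change divided by the square root of F. The biological coefficient of variation was 9.71%. On simulated counts for this comparison (16890 genes, 200 changed) the test recovered 50.7% of 1.5-fold, 64.2% of 2-fold and 92.4% of 4-fold changes, and 2.13% of its calls were false. The simulated libraries had no difference between library sets, no outlying library and no blood cell transcripts. These rates therefore need not hold for the calls reported here. An interval or limit from a count covers counting error only, since reads are not independent molecules.

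The comparison, the 48 gene lists and the 9 marker lists were chosen with earlier results of these data known. Genes were named by a rule: the 15 largest rises and falls with at least 5 CPM in 1 group and both treated libraries beyond the vehicle, up to 5 called members of each list by size of change, and the defining members of the lists. The remaining genes named in the text were chosen after their values were seen. Motif spellings were chosen after the promoters were inspected. The alternatives were 12 planned settings and 2 added after the results were seen, among them DESeq2 1.42.0. Some genes are not reported here.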

Additional observations from a re-analysis of the deposited data

Results flagged for a closer look

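Transcripts of blood cells were found in Soshiho-tang high dose replicate 3 among genes too low to be tested. HBB was at 3.36 CPM and HBA2 at 2.98 CPM, S100A9 at 3.27 CPM, HLA-DRA at 3.93 CPM and FCN1 at 2.09 CPM. In the vehicle libraries HBB, HLA-DRA and FCN1 were at 0, and HBA2 and S100A9 did not exceed 0.0348 CPM. All 5 were at 0 in Soshiho-tang high dose replicate 2. Their source was not tested.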

How the results depend on the processing

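The count of 1339 called genes was 1373 with DESeq2's size factors in edgeR, 1494 with DESeq2 (where 1642 genes had no adjusted p) and 1062 against the low dose of the same library set. It was 866 with no filter on low counts, where 36112 genes were tested, and 475 when the fit held the 2 groups alone. Leaving out 1 library of the comparison gave 674 to 1195 genes, with the 674 without Soshiho-tang high dose replicate 3. Without Yijin-tang low dose replicate 2, a library of another group, 3057 genes were called (1682 higher, 1375 lower). Without that library the count was 2152 when high dose replicate 3 was also left out and 3300 when high dose replicate 2 was. Both of these settings were chosen after seeing the data. For the changes between these counts the cause was not tested, apart from the fewer libraries or the more genes tested. The replicate number as a block gave 1359 genes, 1275 of them among the 1339. Deviations from the group means correlated at -0.318 for number 2 and 0.156 for number 3. With 2 high dose libraries their deviations mirror each other, so these values cannot show whether a number marks a shared source.

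Of the 184 genes drawn by the naming rule, the calls of 128 were kept without high dose replicate 3, 148 without high dose replicate 2, 112 with only the 2 groups and 138 against the low dose. DNAJB1 and HSPA8 changed sign against the low dose, to 0.18 and 0.24 on the log2 scale. With 2 treated libraries, changes under 1.5-fold are the least certain.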

Other observations

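Several genes outside the programmes described above also changed at the high dose. SPRR1B, a cornified envelope precursor, was at 0.238, 0.824 and 0.487 CPM in the vehicle and at 3.73 and 3.298 CPM at the high dose (2.77 ± 0.30, adjusted p = 6.01e-09 by edgeR's quasi-likelihood test), with both treated libraries above the vehicle. FGF19, the intestinal hormone that restrains bile acid synthesis, was at 32.7, 35.5 and 39.5 CPM against 49.0 and 56.5 CPM (0.56 ± 0.09), the only called gene among 11 tested genes of the LXR, FXR and bile acid list. CCN2, a target of YAP and TGF-beta, fell from 5.17, 4.83 and 5.04 to 2.61 and 2.47 CPM (-0.98 ± 0.18), the only call among 17 tested YAP targets. DBP, an output gene of the circadian clock, fell from 7.62, 6.59 and 7.62 to 4.34 and 3.74 CPM (-0.86 ± 0.17), the only call among 16 tested clock genes. Over all genes tested 7.93% were called, so 1 call in lists of these sizes is near that share. SMAD3, a signal transducer of TGF-beta, rose by 0.51 ± 0.11, and ID2, an inhibitor of differentiation factors, fell by 0.49 on the log2 scale. SLC30A1, a zinc exporter, rose by 0.46 ± 0.07 against the vehicle, and its difference from the low dose was 0.16 (adjusted p = 0.288). All 7 of these genes were also called without either treated library.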
